A study of Mus musculus with 9 samples.

Results

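The microRNA families miR-135, miR-137, miR-138 and miR-218, known from work on dendrites and synapses, were followed in the mouse hippocampus after exposure to fine particulate matter (PM2.5). A family arm was taken as a member when the scanner software called it detected on at least 3 of the 9 arrays, whatever its change with dose. The array carried 13 arms of these families among its 1247 mouse miRNAs, and 10 of them met this rule. The other 3 arms, miR-135b-3p, miR-218-1-3p and miR-218-2-3p, were detected on 0 arrays. The mice were male C57BL/6, approximately 8 weeks old. They received saline (control, n = 3), PM2.5 at 1 mg/kg bw (n = 3) or PM2.5 at 5 mg/kg bw (n = 3) by aspiration through the throat, repeated on alternate days over 4 weeks. Total hippocampal RNA of each mouse was put on 1 single-colour Agilent array. The comparison asks whether the level of these miRNAs differed with the dose of PM2.5. In whole tissue, fewer cells of a type and less RNA per cell cannot be told apart.

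A microRNA is cut from a hairpin precursor, and either strand of the hairpin (the 5p or the 3p arm) can be loaded into the silencing complex. It finds its messenger RNA targets mainly through the seed, bases 2 to 8 from its 5′ end. miR-137 is enriched in neurons, acts on neuronal maturation and lies in a locus associated with schizophrenia. miR-138 limits the size of dendritic spines through the depalmitoylating enzyme APT1. miR-135 has been linked to long-term depression and to the serotonin transporter, and miR-218 to the strength of excitatory synapses.

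The mature sequences are shown because the seed is what separates these families, and because arms of 1 family need not share it. They are from RefSeq (GRCm38.p6), which holds 9 of the 10 members, and the capitals mark the seed.
mmu-miR-137-3p: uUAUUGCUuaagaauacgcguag
mmu-miR-137-5p: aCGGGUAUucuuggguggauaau
mmu-miR-138-5p: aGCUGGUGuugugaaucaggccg
mmu-miR-138-1-3p: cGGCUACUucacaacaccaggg
mmu-miR-138-2-3p: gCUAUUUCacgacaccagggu
mmu-miR-135a-5p: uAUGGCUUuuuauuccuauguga
mmu-miR-135a-1-3p: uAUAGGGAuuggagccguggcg
mmu-miR-135a-2-3p: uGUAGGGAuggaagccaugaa
mmu-miR-218-5p: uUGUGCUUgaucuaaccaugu
The remaining member, miR-135b-5p, has no sequence there. Its seed was therefore not compared, and whether it equals that of miR-135a-5p is not shown here, though their probes differ at only 1 position. The 9 seeds shown differ from one another, and among the 1017 array miRNAs with a sequence in the same table, 0 others carried one of them. The arms of miR-138-1 and miR-138-2 that face the shared miR-138-5p have different seeds, as do those of miR-135a-1 and miR-135a-2.

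Both arms of miR-137 come from 1 hairpin, with miR-137-3p at chr3:118433901-118433923 and miR-137-5p at chr3:118433865-118433887 on the plus strand, where the annotation lists no other gene. miR-138-5p has 2 sources, at chr9:122682898-122682920 with no overlapping gene and at chr8:94324312-94324334 within the span of Nup93, a nuclear pore gene. miR-135a-5p also has 2 sources, at chr9:106154140-106154162 within the spans of Glyctk and the long noncoding RNA D030055H07Rik, and on the minus strand at chr10:92072141-92072163 outside other genes. miR-218-5p lies at chr5:48223966-48223986 within the span of Slit2 and at chr11:35616840-35616860 within that of Slit3, both genes of axon guidance ligands. The hairpin of miR-135b-5p, at chr1:132198088-132198184, lies within the spans of Lemd1 and Gm29695. The 5p arms of miR-138, miR-135a and miR-218 are therefore sums over 2 loci on this array.

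Between 410 and 436 miRNAs were detected per array, the neuronal markers miR-124-3p, miR-9-5p, miR-9-3p and miR-128-3p were detected on all 9, 0 spots were saturated and the number of arrays limits the precision. Signals are given as log2 of the signal over the 75th percentile of the array, so that 0 is the level of that percentile, and the levels of different miRNAs are not comparable because each has probes of its own. Tests covered 424 miRNAs, each found on every array of some group, and all 10 members were among them. On slide 1, the 3 controls shared row 1 with 1 mg/kg replicate 1, and row 2 held 1 mg/kg replicates 2 and 3 with 5 mg/kg replicates 1 and 2. Alone on slide 2, in its row 1, lay 5 mg/kg replicate 3. Where the row is used as a block below, rows are pooled over both slides. That array then shares a block with the controls, and slide and row are not separated. The sources do not say whether the mice of a group came from separate litters or cages.

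At 5 mg/kg against control, 0 of the 10 members passed an unadjusted p under 0.05 in limma and 0 passed after Benjamini-Hochberg adjustment over all tested miRNAs. Of all tested miRNAs, 9.43% passed the unadjusted threshold in that comparison and 0% the adjusted one. In the other comparisons the count of members was also 0, beside 7.78% of all tested at 1 mg/kg against control and 3.77% at 5 mg/kg against 1 mg/kg, and 0.236% of all tested passed after adjustment in each of these. The lowest adjusted p of a member in any of them was 0.549. The median log2 difference of the 10 members was 0.16 at 5 mg/kg against control, 0.068 at 1 mg/kg against control and 0.11 at 5 mg/kg against 1 mg/kg, beside -0.0035, -0.032 and 0.041 over all tested miRNAs. The members' difference was above 0 for 9, 6 and 9 of the 10, beside 48.8%, 39.9% and 67.9% of all tested, and the arms are not independent since several correlated above 0.9 over the arrays. miR-135a-2-3p was tested only because it was detected on every 1 mg/kg array. Over the members detected on all 9 arrays the counts were 8, 5 and 9 of 9. Normexp background correction, a model-based background estimate, was run with an offset of 50 added to every spot. A constant weighs most on weak arms, and its part was not tested. With this correction the counts of differences above 0 were 5, 3 and 9 of the 10. With rows, pooled over both slides, entered as blocks they were 5, 2 and 9. The arrays of both doses are split over the rows alike, so the last of these counts could not change. The median at 5 mg/kg against control was 0.028 with normexp and 0.016 with row blocks, beside -0.047 and 0.013 over all tested.

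**Figure D1:**
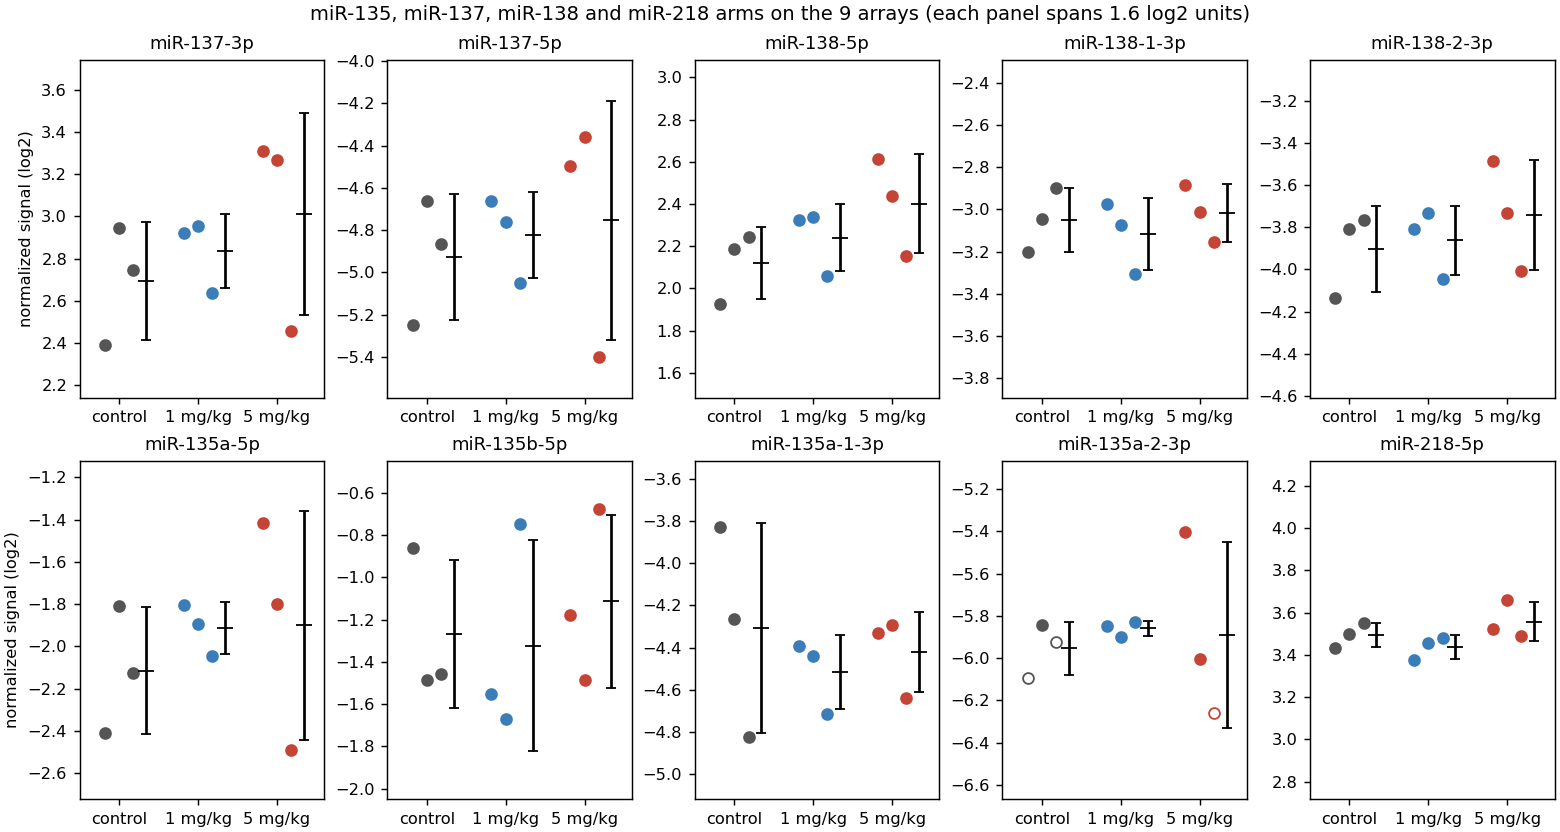
Normalized signal (log2) of the 10 members on each array by group (grey control, blue 1 mg/kg, red 5 mg/kg, replicates 1 to 3 from left to right); open circles mark arrays where the miRNA was not detected, and the bar beside each group gives its mean ± SD (n = 3). The groups overlap in every panel, apart from 5 mg/kg against 1 mg/kg for miR-218-5p, and 5 mg/kg replicate 3 is the lowest 5 mg/kg array for every member but miR-135b-5p.

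mmu-miR-137-3p, the arm usually taken as the active strand, read 2.39, 2.94 and 2.75 on the control arrays, 2.92, 2.95 and 2.64 at 1 mg/kg, and 3.31, 3.27 and 2.46 at 5 mg/kg. The first and second 5 mg/kg arrays were above every other array, while the third was below all but 1 control array. The group means were 2.69 ± 0.28, 2.84 ± 0.18 and 3.01 ± 0.48 (SD, n = 3 each). The difference at 5 mg/kg against control was 0.32 (SE 0.24, 95% interval -0.23 to 0.86, limma adjusted p = 0.698), which is 1.25-fold with an interval of 0.853 to 1.82. The difference was 0.14 (SE 0.24) at 1 mg/kg against control, turning to -0.0097 without control replicate 1 and, with a row term, to -0.093, and 0.17 (SE 0.24) at 5 mg/kg against 1 mg/kg.

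The value of miR-137-3p depended on single arrays. Without 5 mg/kg replicate 3, the difference of miR-137-3p against control was 0.59 (unadjusted p = 0.00768, adjusted p = 0.165, limma), and the count over all tested miRNAs rose from 40 to 120. It was 0.17 without control replicate 1, 0.17 without 5 mg/kg replicate 1 and 0.19 without 5 mg/kg replicate 2. Within row 2 of slide 1, the 2 arrays at 5 mg/kg exceeded the 2 at 1 mg/kg by 0.49. With the row as a block the difference against control was 0.082, and with the slide as a block, which removes that array from the comparison, 0.59. The slide and the array cannot be told apart.

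The opposite arm, mmu-miR-137-5p, followed the same arrays. Its values were -5.25, -4.66 and -4.87 in controls, -4.66, -4.76 and -5.05 at 1 mg/kg, and -4.50, -4.36 and -5.40 at 5 mg/kg. The highest and the lowest of the 9 values were both 5 mg/kg arrays. The difference at 5 mg/kg against control was 0.17 (SE 0.27, limma adjusted p = 0.864). It had no stable direction, being 0.50 without 5 mg/kg replicate 3, 0.011 without control replicate 1, 0.045 without 5 mg/kg replicate 1 and -0.023 without 5 mg/kg replicate 2. It was also below 0 with normexp (-0.045), in the deposited log2 table (-0.052) and with the row as a block (-0.070). This arm gave 14.2 to 26.9 signal units, where the lowest detected signal of an array was 5.99 to 8.10 units.

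Among the miR-138 arms, mmu-miR-138-5p had the smallest unadjusted p of any member. It read 1.93, 2.19 and 2.25 in controls, 2.33, 2.34 and 2.06 at 1 mg/kg, and 2.61, 2.44 and 2.15 at 5 mg/kg. The first and second 5 mg/kg arrays again lay above all others, and the third lay among the controls. The means were 2.12 ± 0.17, 2.24 ± 0.16 and 2.40 ± 0.23 (SD, n = 3 each).

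The difference of miR-138-5p at 5 mg/kg against control was 0.28 (SE 0.14, 95% interval -0.043 to 0.60, unadjusted p = 0.0805, limma adjusted p = 0.549), or 1.22-fold. Its slope over the order control, 1 and 5 mg/kg was 0.14 per step (95% interval -0.0099 to 0.29, adjusted p = 0.515, limma), where 9.43% of all tested miRNAs had a slope at an unadjusted p under 0.05. The difference was 0.18 without control replicate 1 (unadjusted p = 0.250, limma), 0.18 without 5 mg/kg replicate 1 (unadjusted p = 0.260) and 0.20 with the row as a block (unadjusted p = 0.295). It had an unadjusted p of 0.0152 without 5 mg/kg replicate 3 and of 0.0384 with normexp. Its lowest limma adjusted p in any setting tried was 0.137, with the total signal listed in the files, which is described below. The slope and the F test for any difference between the 3 groups, which 7.31% of all tested passed at an unadjusted p under 0.05, called 0 members.

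The 3p arms of miR-138 are specific to 1 locus each. miR-138-2-3p read -4.14, -3.81 and -3.76 in controls, -3.81, -3.73 and -4.04 at 1 mg/kg, and -3.48, -3.73 and -4.01 at 5 mg/kg. miR-138-1-3p read -3.20, -3.05 and -2.90 in controls, -2.97, -3.07 and -3.30 at 1 mg/kg, and -2.88, -3.01 and -3.16 at 5 mg/kg. The groups overlapped for both arms. Their differences at 5 mg/kg against control were 0.16 (SE 0.16) and 0.032 (SE 0.12), and turned to -0.023 and -0.037 with normexp. Without 5 mg/kg replicate 1 they were 0.034 and -0.035, and without control replicate 1 0.045 and -0.045.

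**Figure D2:**
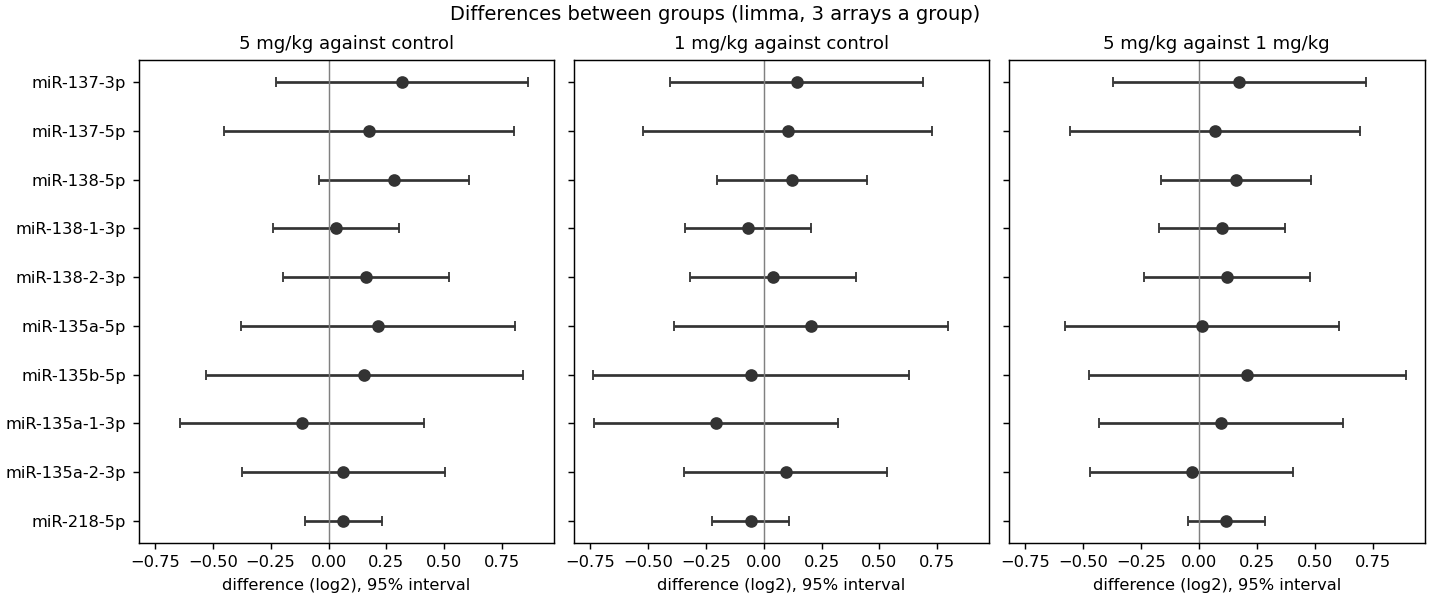
Log2 difference between groups with its 95% interval for the 10 members in the 3 comparisons (limma over all 9 arrays). Every interval includes 0, and those of miR-218-5p are the narrowest.

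The 5p arms of miR-135a and miR-135b correlated at -0.59 over the 9 arrays. mmu-miR-135a-5p read -2.41, -1.81 and -2.13 in controls, -1.80, -1.89 and -2.04 at 1 mg/kg, and -1.41, -1.80 and -2.49 at 5 mg/kg. Its highest and lowest arrays were both at 5 mg/kg, a 2.11-fold span. The difference at 5 mg/kg against control was 0.21 (SE 0.26, limma adjusted p = 0.805), and it rested on single arrays. It was 0.51 without 5 mg/kg replicate 3, 0.067 without control replicate 1, -0.028 without 5 mg/kg replicate 1 and -0.024 with the row as a block.

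mmu-miR-135b-5p read -0.86, -1.48 and -1.46 in controls, -1.55, -1.67 and -0.75 at 1 mg/kg, and -1.18, -1.48 and -0.67 at 5 mg/kg. Each group held 1 high array: control replicate 1, 1 mg/kg replicate 3 and 5 mg/kg replicate 3. These are the arrays on which miR-137-3p was lowest in its group. The difference at 5 mg/kg against control was 0.15 (SE 0.30, 95% interval -0.53 to 0.84, limma adjusted p = 0.884), and -0.065 without 5 mg/kg replicate 3. The 22-base and 23-base probes of miR-135a-5p and miR-135b-5p differ from each other at 1 position, and the part of each miRNA in the other's signal was not tested.

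The 3p arms of miR-135a each belong to 1 locus. miR-135a-1-3p was detected on all 9 arrays at 17.4 to 38.1 signal units and ranged from -4.83 to -3.83 over the 9 arrays, with both extremes in the control group, and its 4 probes of 10 to 13 bases agreed poorly, with a lowest correlation of 0.40 over the arrays. miR-135a-2-3p was detected on 6 arrays, which were 1 control, 3 at 1 mg/kg and 2 at 5 mg/kg. Its summed signal was 8.61 to 13.1 units on these and 6.21 to 7.17 units on the other 3, where it was raised to the lowest detected signal of the array. At 5 mg/kg against control the differences were -0.11 (SE 0.23) and 0.064 (SE 0.19), and without control replicate 1 they were 0.12 and -0.0055.

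mmu-miR-218-5p had the smallest spread of the 10 members. It read 3.43, 3.50 and 3.55 in controls, 3.37, 3.46 and 3.48 at 1 mg/kg, and 3.52, 3.66 and 3.49 at 5 mg/kg, a 1.22-fold span. All 3 arrays at 5 mg/kg were above all 3 at 1 mg/kg, the single case among the 30 pairs of member and comparison in which the groups did not overlap. Of all tested miRNAs, 7.31% did not overlap in that comparison (5.9% higher), and 16% and 12.3% did not at 5 and 1 mg/kg against control. The difference between the doses was 0.12 (SE 0.073, 95% interval -0.047 to 0.29, limma adjusted p = 0.995), and that at 5 mg/kg against control was 0.063 (SE 0.073), which was 0.011 without 5 mg/kg replicate 2 and -0.0035 with the row as a block.

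The members differed in how far they varied between arrays of one group, where mouse, array and slide position are not separated. The within-group SD was 0.34 for miR-137-3p, 0.39 for miR-137-5p, 0.37 for miR-135a-5p and 0.43 for miR-135b-5p, beside a median of 0.14 over all tested miRNAs. These values lie between the 91.0 and 94.8 percentiles of the tested miRNAs. The SD of miR-138-5p was 0.19, at the 67.7 percentile, and that of miR-218-5p was 0.070, at the 12.5 percentile.

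**Figure D3:**
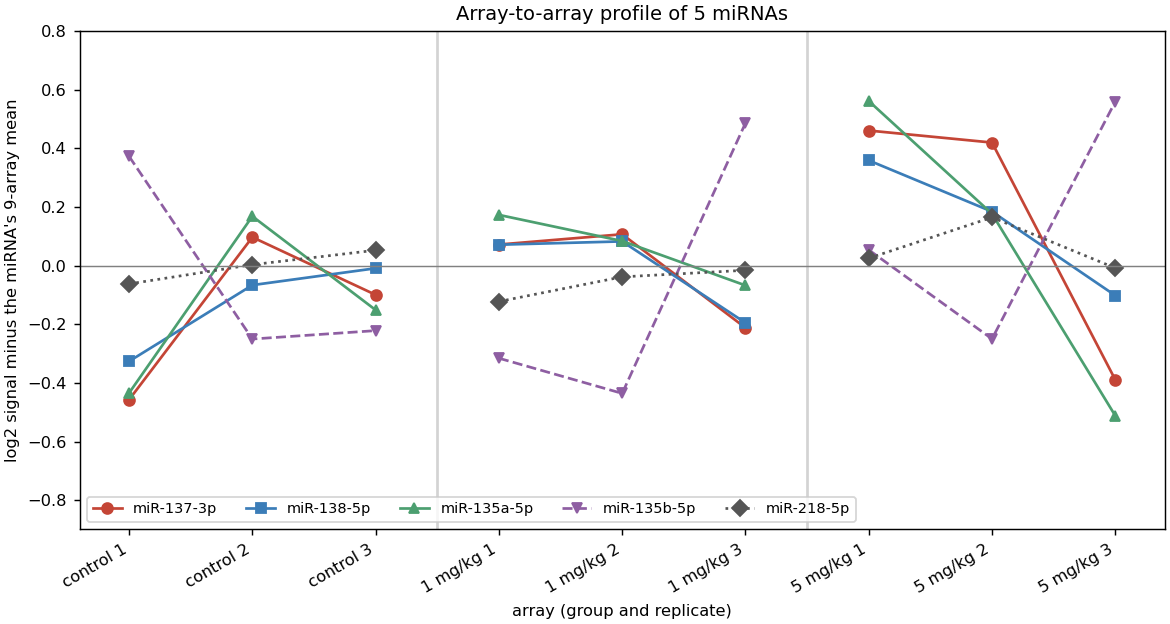
Log2 signal of 5 miRNAs on each array minus the miRNA's mean over the 9 arrays; grey lines separate the groups, and the lines between replicates only guide the eye. miR-137-3p, miR-138-5p and miR-135a-5p are lowest of their group together on control replicate 1, 1 mg/kg replicate 3 and 5 mg/kg replicate 3, where miR-135b-5p is high, and miR-218-5p stays within 0.2 of its mean.

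Across the 9 arrays, miR-137-3p had a Pearson correlation of 0.96 with miR-137-5p, 0.91 with miR-138-5p, 0.91 with miR-138-2-3p and 0.93 with miR-135a-5p. The Spearman values were 0.90, 0.93, 0.93 and 0.90. Without the 2 arrays farthest from the median, control replicate 1 and 5 mg/kg replicate 3, the Pearson values were 0.95, 0.91, 0.82 and 0.85. After removal of the group means they were 0.98, 0.91, 0.89 and 0.95, so that the arms varied together among arrays of one group. The points share the scaling of each array and the correlations are descriptions. With normexp background correction the value for miR-137-5p was 0.52 and that for miR-138-2-3p 0.58, while those for miR-138-5p and miR-135a-5p were 0.91 and 0.91. The offset of 50 in that correction weighs most on weak arms such as miR-137-5p, and its part was not tested. With miR-135b-5p the correlation was -0.66, and -0.31 without the same 2 arrays. With miR-218-5p it was 0.48.

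Of 386 tested miRNAs outside these families that were detected on all 9 arrays, the 3 most like miR-137-3p over the arrays were miR-487b-3p (r = 0.98), miR-148a-3p (0.98) and miR-370-3p (0.98), and the most opposed was miR-15a-5p (-0.99). For miR-138-5p they were miR-300-5p (0.97), miR-370-3p (0.95) and miR-376b-3p (0.94), and for miR-135a-5p miR-148a-3p (0.97), miR-669f-3p (0.96) and miR-495-3p (0.96). For miR-135b-5p they were miR-93-5p (0.96), miR-124-5p (0.94) and miR-24-2-5p (0.92). The profile of miR-218-5p had no near match, the closest being miR-9-5p (0.75), miR-708-5p (0.72) and miR-1839-5p (0.69). A correlation above 0.9 was held by 32 of the 386 with miR-137-3p and by 0 with miR-218-5p.

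Summed levels of cell type markers followed this array pattern to differing degrees. The summed level of the 2 oligodendrocyte markers ran from 3.63 to 5.24 in controls, 4.47 to 5.53 at 1 mg/kg and 2.57 to 5.87 at 5 mg/kg, in multiples of the 75th percentile, and correlated with miR-137-3p at -0.82 over the 9 arrays. Within 5 mg/kg, the sum was 2.57 on replicate 1, where miR-137-3p was highest, and 5.87 on replicate 3, where it was lowest. The sum of the 3 muscle markers, of which miR-206-3p was detected on 0 arrays, correlated at -0.90. The vessel wall sum (2 markers) correlated at -0.73 and the neuron sum (4 markers) at -0.72. The blood, immune cell and choroid plexus sums correlated at 0.56, 0.55 and 0.28. A sum weighs its strongest markers most, and the markers within a list differed. miR-137-3p was lowest on control replicate 1 and highest on 5 mg/kg replicate 1. Between these arrays miR-143-3p (vessel wall) rose from -1.49 to -1.26 and miR-9-5p (neuron) from 4.23 to 4.45. The vessel wall marker miR-126-3p and the neuron markers miR-124-3p, miR-9-3p and miR-128-3p fell. The liver marker miR-122-5p was detected on 0 arrays. The part of cell composition in the members' values was not tested.

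Other miRNA families with known roles at synapses, among them miR-9, miR-34, miR-124, miR-132, miR-134, miR-181 and miR-204, had 44 arms on the array and 29 tested. At 5 mg/kg against control 0 of these passed an unadjusted p under 0.05, and their median difference was -0.025. At 1 mg/kg against control 6 of the 29 passed, all higher, beside 12 of all 424 tested (2.83%), which include them. These were both arms of miR-204, miR-34b and miR-34c, with differences of 0.76 to 1.08. At 5 mg/kg against 1 mg/kg, miR-9-5p was higher (0.17) and 7 were lower, those 6 arms and miR-211-5p, beside 1.42% and 2.36% of all tested. The summed level of the 3 choroid plexus markers, which include miR-204-5p and miR-211-5p, was 3.07 to 4.88 in controls, 5.36 to 8.74 at 1 mg/kg and 2.85 to 5.56 at 5 mg/kg. This sum is mostly miR-204-5p, itself among those 6 arms, so it is not a separate measure. The part of choroid plexus tissue in these differences was not tested. None of these arms passed in limma after adjustment, with a lowest adjusted p of 0.538.

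**Figure D4:**
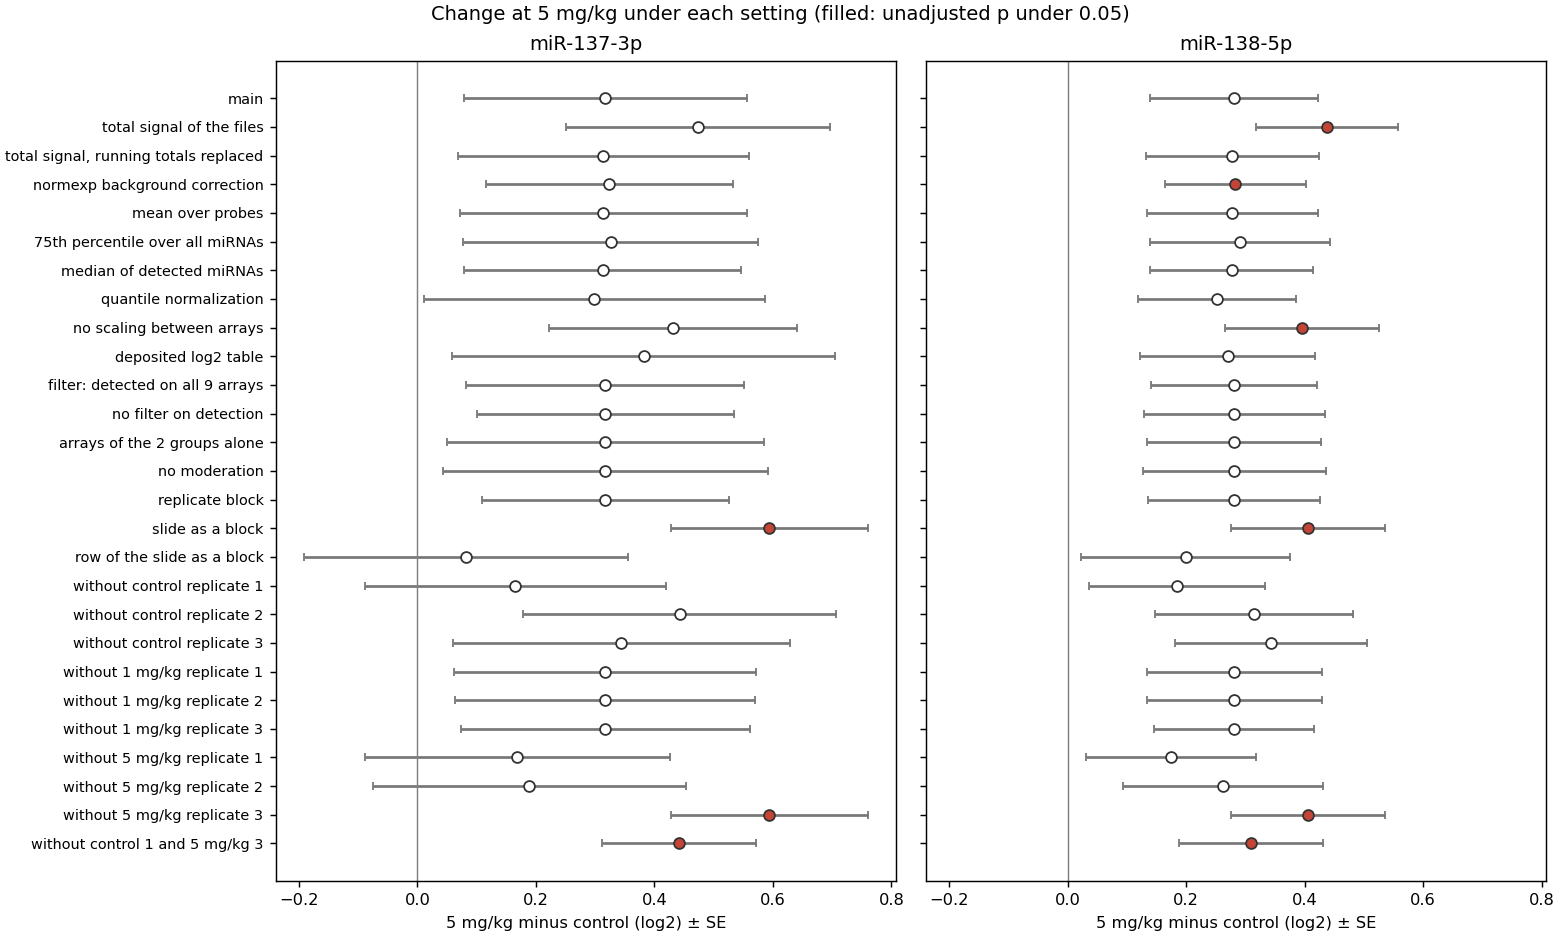
Log2 difference ± SE of miR-137-3p and miR-138-5p at 5 mg/kg against control under the main and each other setting; filled points had an unadjusted p under 0.05 in limma. All values are above 0, and the highest of miR-137-3p, 0.59, are those without 5 mg/kg replicate 3.

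The deposited files also list a total signal for each miRNA, and for 4 of the 10 members this was not the signal of their own probes. For miR-137-3p, miR-138-5p, miR-138-1-3p, miR-135a-5p, miR-135b-5p and miR-218-5p the total was, within each array, the same multiple of the summed probes. The total of miR-137-5p was 192 to 233 times the value that multiple gives, and exceeded the total of miR-137-3p by 4.08 to 7.79 units, so that it held the signal of the arm listed before it. miR-135a-1-3p and miR-135a-2-3p were above 1.5 times their own signal on every array where they were detected, by up to 215 and 597 times, and miR-138-2-3p on 5 of 9. Over the array, 926 of 3837 detected values (24.1%) were past that limit. The values given here come from the spots and do not use these totals.

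**Figure D5:**
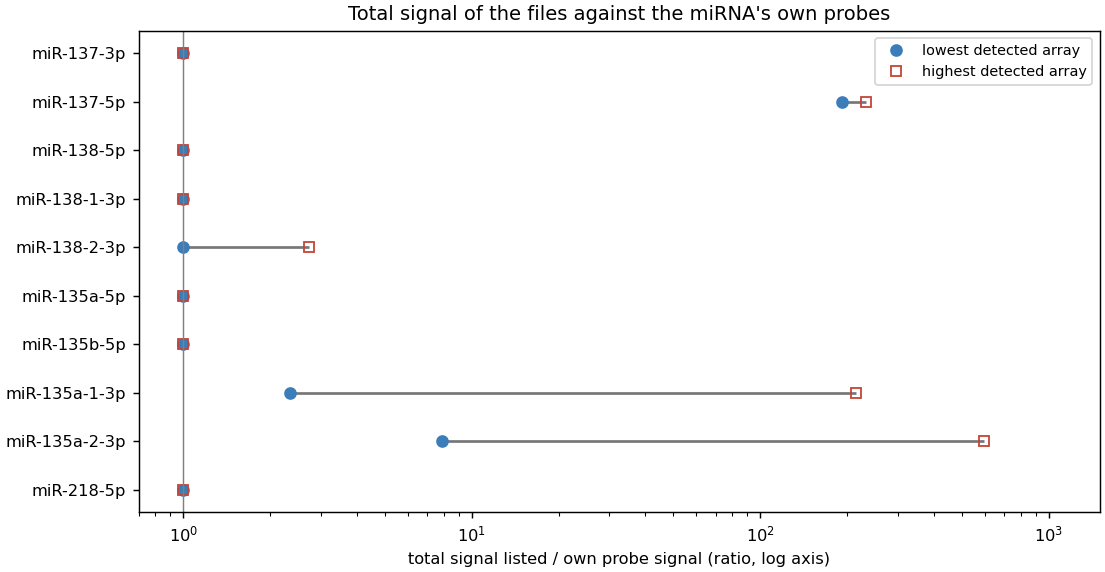
Ratio of the total signal listed in the files to the signal of the miRNA's own probes, scaled per array (log axis), as the lowest and highest value over the arrays where each member was detected. The ratio is 1 for 6 members and above 1 throughout for miR-137-5p, miR-135a-1-3p and miR-135a-2-3p. For miR-138-2-3p it runs from 1 to 2.74.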

How the data were processed

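The platform was the Agilent mouse miRNA array, version 19.0, with 1 array for each of 9 mice. The authors scanned the arrays with Feature Extraction 10.7 and deposited intensity values per spot, with outlier flags, and a detection call and total signal per miRNA. The deposited total signal intensity is a running sum for part of the miRNAs and was used only as an alternative. The deposited log2 table, whose columns share 1 upper quartile and 1 maximum, also served as an alternative. Its normalization is not given in the sources used here.

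Outlier spots were dropped, the spots of a probe averaged and the probes of a miRNA summed. Each array's smallest signal called detected served as its floor. Signals were then scaled to the array's 75th percentile, taken over miRNAs found on every array, and put on the log2 scale. One linear model per miRNA covered the 3 groups (424 miRNAs, limma 3.58.1, R 4.3.3) and was tested on simulated data. Each miRNA varied independently there, so variation shared by the miRNAs of an array was not covered. The 40 calls at an unadjusted p under 0.05 (5 mg/kg against control) follow the study's screening threshold. The named miRNAs are all family arms, the 3 most like each member, and the listed synaptic miRNAs past that threshold or with the largest change. Members and lists were chosen with earlier results of these data known. No 2 arrays shared a spot value (0 of 52044).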

Additional observations from a re-analysis of the deposited data

How the results depend on the processing

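The members' 30 differences gave 777 values under the alternatives. In 679 of these the direction and the side of an unadjusted p of 0.05 stayed, in 22 the p newly fell below it and in 76 the direction turned. Many of the values could not turn. A difference stays as it was under the detection filters, the compared groups alone, no moderation and the replicate block. The same holds when an array of the uncompared group is left out. The slide block repeats the fit without 5 mg/kg replicate 3, and the row block cannot move the difference between the doses. The 679 is therefore not a count of independent checks. After adjustment in limma 0 passed (lowest adjusted p 0.137, with the total signal of the files).

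With the total signal of the files, 102 miRNAs passed the unadjusted threshold at 5 mg/kg against control, 40 in the values reported. Where totals past 1.5 times the own signal were replaced by it, which was chosen after seeing the data, the count was 44, and of the members only miR-135a-2-3p turned (-0.18). With the totals as listed, the difference at 5 mg/kg against control was 4.24 for miR-135a-1-3p, 4.90 for miR-135a-2-3p, 0.47 for miR-137-5p, -0.17 for miR-138-2-3p, 0.44 for miR-138-5p and 0.22 for miR-218-5p. At 1 mg/kg against control it was 0.13 for miR-135a-1-3p, 2.42 for miR-135a-2-3p, 0.084 for miR-135b-5p, 0.071 for miR-138-1-3p and 0.082 for miR-218-5p, and at 5 against 1 mg/kg 4.10, 2.48 and -0.29 for miR-135a-1-3p, miR-135a-2-3p and miR-138-2-3p.

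With normexp background correction (offset 50) the counts at 5 mg/kg, at 1 mg/kg and between the doses were 17, 14 and 9, from 40, 33 and 16. At 5 mg/kg against control the differences were -0.060 for miR-135a-2-3p, -0.045 for miR-137-5p, -0.037 for miR-138-1-3p, -0.023 for miR-138-2-3p and 0.28 for miR-138-5p. At 1 mg/kg they were -0.050, -0.059 and -0.049 for miR-135a-2-3p, miR-137-5p and miR-138-2-3p.

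With the slide as a block the counts at 5 mg/kg against control and against 1 mg/kg were 120 and 35, and the differences against control were 0.51 for miR-135a-5p, -0.065 for miR-135b-5p, 0.59 for miR-137-3p, 0.50 for miR-137-5p and 0.41 for miR-138-5p. Between the doses they were 0.16, -0.0095 and 0.45 for miR-135a-2-3p, miR-135b-5p and miR-137-3p. With the row, pooled over both slides, as a block the counts at 5 and 1 mg/kg were 14 and 8. At 5 mg/kg the differences were -0.12, -0.024, -0.070 and -0.0035 for miR-135a-2-3p, miR-135a-5p, miR-137-5p and miR-218-5p. At 1 mg/kg they were -0.086, -0.036, 0.050, -0.093, -0.14 and -0.065 for miR-135a-2-3p, miR-135a-5p, miR-135b-5p, miR-137-3p, miR-137-5p and miR-138-2-3p.

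The deposited log2 table gave -0.052 for miR-137-5p at 5 mg/kg, 0.047 for miR-218-5p at 1 mg/kg, and -0.054, -0.15 and -0.19 between the doses for miR-135a-1-3p, miR-135a-5p and miR-137-5p. Without scaling the differences were 0.40 for miR-138-5p at 5 mg/kg and 0.054, 0.041 and 0.053 for miR-135b-5p, miR-138-1-3p and miR-218-5p at 1 mg/kg. Quantile normalization gave 0.041 for miR-218-5p at 1 mg/kg, and the percentile over all miRNAs -0.014 for miR-135a-5p between the doses. Without a filter on detection 780 miRNAs passed at 1 mg/kg, since undetected miRNAs then hold the floor of each array. The cause of the other shifts was not tested.

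Without control replicate 1 and 5 mg/kg replicate 3 together, chosen after seeing the data, the counts at 1 mg/kg and between the doses were 17 and 61. The differences at 5 mg/kg were 0.23, 0.44 and 0.31 for miR-135a-1-3p, miR-137-3p and miR-138-5p. At 1 mg/kg they were 0.031, 0.15, -0.0097, -0.059 and -0.076 for miR-135a-1-3p, miR-135b-5p, miR-137-3p, miR-137-5p and miR-138-2-3p, and between the doses 0.16, -0.0095, 0.45, 0.40 and 0.29 for miR-135a-2-3p, miR-135b-5p, miR-137-3p, miR-137-5p and miR-138-5p.

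Leaving out each array in turn, the counts ran from 21 to 120 at 5 mg/kg against control, 11 to 49 at 1 mg/kg and 8 to 35 between the doses. The differences at 5 mg/kg against control ran from -0.37 to 0.12 for miR-135a-1-3p, -0.18 to 0.25 for miR-135a-2-3p, -0.028 to 0.51 for miR-135a-5p, -0.065 to 0.36 for miR-135b-5p, 0.17 to 0.59 for miR-137-3p, -0.023 to 0.50 for miR-137-5p, -0.045 to 0.11 for miR-138-1-3p, 0.034 to 0.29 for miR-138-2-3p, 0.18 to 0.41 for miR-138-5p and 0.011 to 0.097 for miR-218-5p. At 1 mg/kg they ran from -0.47 to 0.031 for miR-135a-1-3p, 0.025 to 0.15 for miR-135a-2-3p, 0.055 to 0.36 for miR-135a-5p, -0.34 to 0.15 for miR-135b-5p, -0.0097 to 0.27 for miR-137-3p, -0.059 to 0.23 for miR-137-5p, -0.15 to 0.025 for miR-138-1-3p, -0.076 to 0.13 for miR-138-2-3p, 0.024 to 0.21 for miR-138-5p and -0.087 to -0.025 for miR-218-5p. Between the doses they ran from -0.0057 to 0.20 for miR-135a-1-3p, -0.27 to 0.16 for miR-135a-2-3p, -0.23 to 0.31 for miR-135a-5p, -0.0095 to 0.50 for miR-135b-5p, 0.026 to 0.45 for miR-137-3p, -0.13 to 0.40 for miR-137-5p, 0.0069 to 0.17 for miR-138-1-3p, -0.0069 to 0.25 for miR-138-2-3p, 0.055 to 0.29 for miR-138-5p and 0.067 to 0.15 for miR-218-5p.

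Same-numbered arrays of different groups had correlations of their deviations from -0.65 to 0.74, without a common sign. With so few arrays these values cannot show whether the numbers pair the mice. With the replicate block the difference of miR-138-5p at 5 mg/kg remained 0.28 and 0 members passed.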

Other observations

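The miRNAs that varied with miR-137 and miR-138 across the arrays were often from chromosome 12, which holds a large imprinted miRNA cluster. Of the 26 placed miRNAs with a correlation above 0.9 with miR-137-3p, 18 lie on chromosome 12 (69.2%). For miR-138-5p these were 14 of 16 (87.5%) and for miR-138-2-3p 17 of 19 (89.5%), beside 66 of 315 (21.0%) among all placed candidates. Of those with a correlation below -0.9 with miR-137-3p, 0 of 19 lie there. These are descriptions over 9 arrays that share scaling, and miRNAs of 1 cluster are not independent.

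The largest changes of the other synaptic families at 5 mg/kg against control were a difference of 0.25 (SE 0.12) for miR-134-5p and of -0.66 (SE 0.55) for miR-34a-5p.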
